A study of Homo sapiens with 12 samples.

Results

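MYC, the cyclins CCND1, CCND3, CCNE1, CCNA2 and CCNB1, the CDK inhibitors CDKN1A, CDKN1B and CDKN2B, and MDM2 are 10 of the 56632 genes measured in the free, monoribosomal and polyribosomal fractions of MCF10A cells with and without CBFB. They are matched by gene name as a panel of cell cycle regulators, by a rule that uses no measured value, though results of these data were known when the panel was drawn up. MCF10A is a line of human mammary epithelial cells that does not form tumours, here kept below 20 passages in medium with 5% horse serum, insulin and EGF. WT cells carry intact CBFB, and CBFB_KO cells are the same line after CRISPR-Cas9 deletion of CBFB, the partner of the RUNX transcription factors that the study also examines as an mRNA-binding protein in the cytoplasm. Knockout cells were grown from single-cell colonies, and the number of clones behind these libraries is not given in the sources used here. Cells of both genotypes received 100 µg/ml cycloheximide for 30 min, which holds ribosomes on mRNA, and their lysates were separated on sucrose gradients of 10 to 50%. RNA of the free fraction (mRNA without ribosomes), the monoribosomal fraction (mono) and the pooled polyribosomal fractions (poly) was sequenced from 2 samples of each genotype, giving 12 libraries in 6 groups.

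Progress through the cell cycle is driven by cyclin-dependent kinases (CDKs), which are active only when bound to a cyclin. D-type cyclins act early in G1 downstream of growth factors, cyclin E at entry into S phase, cyclin A in S and G2 phase and cyclin B at mitosis. MYC is a growth-factor-induced transcription factor that promotes growth and proliferation. CDKN1A (p21) and CDKN1B (p27) bind and inhibit cyclin-CDK complexes, CDKN2B (p15) inhibits the kinases of the D-type cyclins, and MDM2 is the ubiquitin ligase that targets p53, the activator of CDKN1A. Several of these mRNAs are short-lived and are known to be controlled in translation as well as in transcription.

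The libraries held 41050325 to 63886726 expected counts. The CBFB_KO free libraries stood apart from the rest. Mitochondrially encoded genes took 71.56% and 87.22% of their counts, against 11.1% and 20.81% in the WT free libraries and 1.26% to 8.08% in the mono and poly libraries. Outside the mitochondrial genes, these libraries kept 13568143 and 5247878 counts, and each of the others at least 43279862. The CBFB_KO poly libraries also stood apart, since they differed from each other far less than other pairs did. Their mean chi-square per gene was 2.26, where sampling noise alone gives about 1 and the other 5 pairs gave 128 to 957. Whether they are 1 RNA sample sequenced as 2 libraries is not stated. A fit with both summed to 1 sample leaves 1 library in that group, and its counts for members and for all genes are given at the end. Of the 8 mammary epithelial markers all were tested, with median TPM from 1.47 (EPCAM) and 2.02 (TP63) to 485 (KRT5) and 577 (KRT17). In the free fraction CDH1, EPCAM and TP63 were higher and KRT8 and KRT18 lower in CBFB_KO, where 42.3% of all tested genes passed. In mono and poly 0 of the 8 passed, beside 0.147% and 0.19% of all genes. In poly 3 of the 8 had an unadjusted edgeR p under 0.05, as did 451 of 16275 genes. There KRT14 was at 19.51 and 21.99 TPM in WT and at 128.45 and 130.05 in CBFB_KO. KRT8 was at 262.21 and 292.2 TPM in WT poly and at 117.73 and 120.63 in CBFB_KO poly. The part of these markers in the members' changes was not tested. Of the 5 matched markers of other cell types, PTPRC, ALB and MYOD1 had 0 counts in every library, CD3E 4 counts in all and COL1A1 0.01 to 2.01 TPM. The mRNA of CBFB was still counted in the CBFB_KO libraries, with 139 to 340 counts against 288 to 982 in WT. Its log2 change in CBFB_KO was 0.49 ± 0.43 (SE) in the free, -0.71 ± 0.43 in the mono and -0.72 ± 0.43 in the poly fraction, and none passed the test (edgeR adjusted p of 0.373, 1 and 1). A deletion that stops the protein need not remove the mRNA, so this level does not check the labels.

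The start codons that the ribosome must reach are shown here for the members other than MYC whose levels changed in a comparison below, because the fractions separate mRNA by ribosome load. Each window runs from 9 bases before the start codon to 3 bases after it, in the GENCODE release 29 transcript (GRCh38) of the gene, with the start codon in capitals.
CCND1: gccccagccATGgaa
CCND3: tgcccgagtATGgag
CCNB1: gaggaagccATGgcg
CDKN1A: gcaggcgccATGtca
CDKN1B: gggagaaagATGtca
MDM2: tccaggcaaATGtgc
The start codons lie at chr11:69641314-69641316 (+ strand, exon 1) for CCND1, chr6:41941647-41941649 (- strand, exon 1) for CCND3, chr5:69167263-69167265 (+ strand, exon 1) for CCNB1, chr6:36684102-36684104 (+ strand, exon 2) for CDKN1A, chr12:12717840-12717842 (+ strand, exon 1) for CDKN1B and chr12:68809212-68809214 (+ strand, exon 2) for MDM2. An A or G in the third base before the start codon together with a G right after it is the context known to favour initiation. CCND1, CCND3 and CCNB1 carry both, as do 3 of the 9 members tested and 44.5% of 12981 tested genes with a transcript.

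An ATG upstream of the start codon, at which a scanning ribosome can initiate early, occurs in 5 of the 9 members tested and in 53% of tested genes, counted on the coding strand in the 5′ UTR. The upstream ATGs of CCNB1, CDKN1A and CDKN1B are shown with the same number of bases around them, to set beside their start codons above.
CCNB1 upstream: cagccgccaATGgga
CDKN1A upstream: tccgcgaggATGcgt
CDKN1B upstream: ccgcaaccaATGgat
The reading frame opened by the CDKN1B upstream ATG (chr12:12717321-12717323, + strand, exon 1) holds 29 codons and ends before the start codon, 519 bases downstream and in the same frame. In CDKN1A (chr6:36678892-36678894, + strand, exon 1) the upstream frame of 47 codons runs past the start codon, 53 bases away, in another frame. In CCNB1 (chr5:69167066-69167068, + strand, exon 1) it holds 4 codons. The 5′ UTRs of the members range from 89 bases in MDM2 to 716 in CDKN1B, against a median of 201 over tested genes. In the 3′ UTR, the AU-rich motif ATTTA, which is known in unstable mRNAs, occurs in 8 of the 9 tested members (7 copies in CCND1 and in CDKN1B, 4 in MYC) and in 67.6% of tested genes, on the coding strand with overlapping copies counted. Runs of CCCC or more, the kind of C-rich sequence that hnRNPK binds, occur in the 3′ UTR of 7 of the 9 tested members and of 79.1% of tested genes, with 22 runs in CDKN1A, 16 in CCND1 and 0 in MYC and MDM2. These matches describe the letters only.

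Levels of different genes were compared per length, in TPM (transcript abundance per length, scaled by the authors to the whole library, mitochondrial genes included). In the WT poly fraction the members fell into a high and a low tier. MYC was at 206 ± 16.4 TPM (SD, n = 2), CDKN1A at 196 ± 27.6, CCNB1 at 189 ± 53.3 and CCND3 at 148 ± 29.3, and the ranges of neighbours in this order overlapped. CCND1 at 10.4 ± 0.226 TPM, CCNE1 at 10.3 ± 0.764 and CCNA2 at 9.66 ± 3.54 also overlapped, above MDM2 at 3.83 ± 0.361 and CDKN1B at 2.56 ± 0.594. In the CBFB_KO poly fraction CDKN1A led with 250 ± 0.877 TPM, followed by MYC with 158 ± 0.806, CCNB1 with 109 ± 1.97 and CCND3 with 94.2 ± 2.02, whose small SDs come from the pair of libraries that barely differ. CCND1 and CCNE1 were both at 12.8 TPM there, above CCNA2 at 7.37 ± 0.509, MDM2 at 6.46 ± 0.806 and CDKN1B at 2.05 ± 0.219. CDKN1A had the highest mean TPM of the members in WT free (442 ± 82.9) and mono (139 ± 80.4) and in CBFB_KO free (46.8 ± 47.5) and mono (203 ± 79.5), so WT poly was the group in which MYC ranked first.

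CDKN2B had 0 counts in all 12 libraries, which allows at most 3 counts in each and a share of up to 4.70e-06 to 7.31e-06 percent of a library, for counting error only. It was therefore not tested, and no comparison below includes it. Its neighbours on chromosome 9p were measured to set beside it. CDKN2A, which codes for p16 and ARF, had 2 counts over all libraries, the antisense transcript CDKN2B-AS1 had 0, MTAP 19 and DMRTA1 89. Farther out, ELAVL2 had 212 counts, KLHL9 981, FOCAD 3042 and TUSC1 14308. CDKN2B, CDKN2A, CDKN2B-AS1 and MTAP were thus at or near 0 in WT and CBFB_KO libraries alike. DMRTA1 reached 31 counts in a CBFB_KO mono library, and its highest WT count was 6. The other 9 members passed the filter on low counts and were tested in every comparison.

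**Figure D1:**
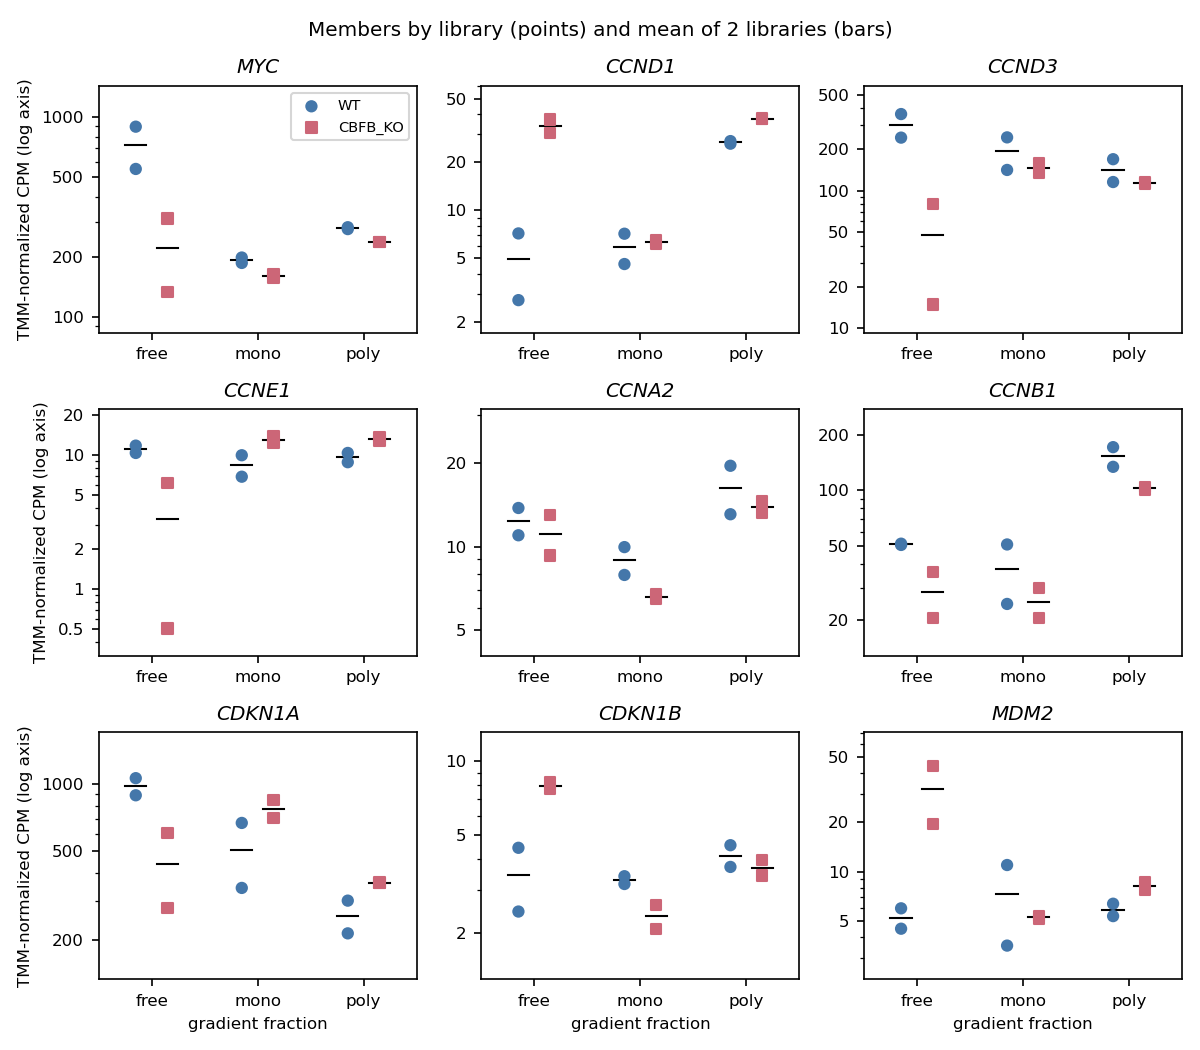
TMM-normalized CPM (log axis) of the 9 tested members in the free, mono and poly fractions of WT (circles) and CBFB_KO (squares) cells. Points are libraries and bars the means of the 2 libraries of a group. The CBFB_KO free libraries lie apart from the WT free libraries for CCND1 (30.5 and 37.2 against 2.73 and 7.16). Its mono libraries overlap between the genotypes (6.11 and 6.53 against 4.6 and 7.13). Its poly libraries do not (37.5 and 37.7 against 27.2 and 26.2), but that difference did not pass.

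In the free fraction, CCND1, MDM2 and CDKN1B were higher and MYC and CCND3 lower in CBFB_KO than in WT, 5 of the 9 tested members, where 42.3% of all 16275 tested genes passed, 24.2% higher and 18.1% lower (edgeR quasi-likelihood test, adjusted p under 0.05). The share among the members is thus near the background. Values are TMM-normalized CPM, counts scaled to library size after edgeR's correction for composition, so each is a gene's share of its own fraction and not the amount of its mRNA in the cell. Fewer mRNA molecules in a fraction and fewer cells contributing to it cannot be told apart.

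Of the D-type cyclins, CCND1 was at 2.73 and 7.16 CPM in the WT free libraries and at 30.5 and 37.2 CPM in the CBFB_KO free libraries. The groups did not overlap, and CCND1 rose by 2.77 ± 0.48 on the log2 scale (SE, edgeR adjusted p = 0.00166), a 6.84-fold difference. CCND3 moved the other way, from 362 and 244 CPM in WT to 80 and 14.9 CPM in CBFB_KO. Its log2 change was -2.67 ± 0.67 (edgeR adjusted p = 0.0105), and the groups did not overlap.

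MYC was at 551 and 898 CPM in the WT free libraries and at 311 and 133 CPM in the CBFB_KO free libraries. All WT values lay above all CBFB_KO values, and MYC fell by 1.71 ± 0.45 on the log2 scale (edgeR adjusted p = 0.0131). MDM2 was at 4.5 and 5.99 CPM in WT and at 19.6 and 44.2 CPM in CBFB_KO, a log2 change of 2.60 ± 0.56 (edgeR adjusted p = 0.00533). The gene length that RSEM assigned to MDM2, an average over its isoforms, ranged from 1034 to 3054 bases over the libraries. It was 1753 and 1034 bases in the WT free libraries alone, on 315 and 466 counts. The mix of isoforms that RSEM assigned thus varied, and whether the isoforms themselves changed was not tested. Assigned lengths also varied for CCND1 (2732 to 4307 bases), CCND3 (1183 to 1864) and CDKN1B (1359 to 2657).

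Among the CDK inhibitors, CDKN1B was at 2.44 and 4.44 CPM in the WT free libraries and at 8.2 and 7.69 CPM in the CBFB_KO free libraries. Its log2 change was 1.21 ± 0.42 (edgeR adjusted p = 0.0386), but it was -0.48 with scaling to library size alone, where it did not pass. CDKN1A was at 889 and 1060 CPM in WT and 601 and 278 CPM in CBFB_KO. These groups did not overlap either, yet the log2 difference of -1.15 ± 0.46 did not pass the test (edgeR adjusted p = 0.0646).

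The later cyclins did not pass in the free fraction. CCNE1 was at 10.4 and 11.8 CPM in WT and 6.16 and 0.506 CPM in CBFB_KO, where the second library held 5 counts. Its log2 difference was -1.67 ± 0.70 (edgeR adjusted p = 0.074). CCNB1 had a log2 difference of -0.85 ± 0.45 (edgeR adjusted p = 0.15), from 50.9 and 51.7 CPM to 36.3 and 20.6 CPM, and CCNA2 one of -0.15 ± 0.36 (edgeR adjusted p = 0.766), with overlapping groups.

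These calls rest on 2 libraries a group. Without the CBFB_KO libraries numbered 2, which include the free library with 87.22% mitochondrial counts, CCND1 had a log2 change of 2.64. The calls of MYC, CCND3, MDM2 and CDKN1B did not hold in that fit. Without CBFB_KO replicate 1, CCND3 was at -4.35, CCNE1 at -4.46 and CDKN1A at -1.82. Over the 14 alternatives run here, the changes ran from -3.22 to -1.21 for MYC and from 1.01 to 3.565 for CCND1. They ran from -4.35 to -1.91 for CCND3, 0.70 to 3.07 for MDM2 and -0.48 to 1.63 for CDKN1B. Of the 14, CDKN1B passed in 5, MYC and CCND3 each in 11, MDM2 in 12 and CCND1 in 13. Leaving out a replicate leaves 1 library in a group, and the counts for members and for all genes in such fits are given at the end. With scaling to library size alone, without TMM, the median of all genes was -1.57 in place of 0.04, CCND1 was at 1.01 (adjusted p = 0.162) and MDM2 at 0.70 (adjusted p = 0.288). MYC at -3.22 and CCND3 at -4.04 passed there, as did CDKN1A, CCNE1, CCNA2 and CCNB1, all lower, so 6 members passed.

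**Figure D2:**
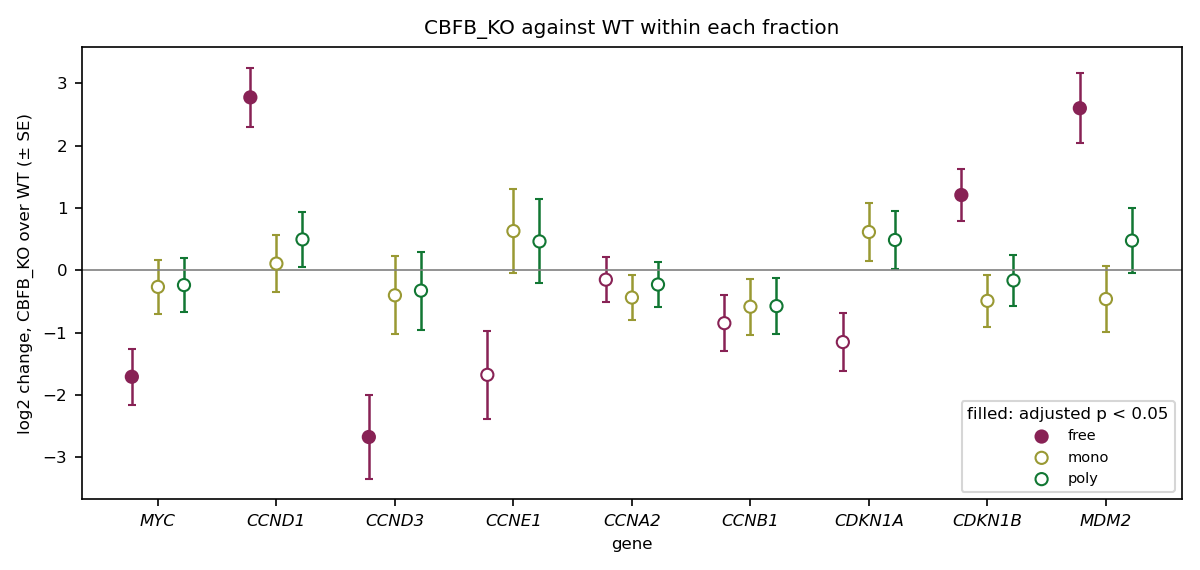
Log2 change of CBFB_KO over WT (± SE) of each tested member in the free, mono and poly fractions, from TMM-normalized counts. Filled points passed the edgeR test at an adjusted p under 0.05: CCND1, CDKN1B and MDM2 (higher) and MYC and CCND3 (lower), all in the free fraction, of which CDKN1B turns negative with scaling to library size alone.

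In the fractions with ribosomes no member passed between the genotypes. In the mono fraction 0 of 9 members passed, and 0.147% of all tested genes did, 0.0307% higher and 0.117% lower. In the poly fraction 0 of 9 members passed, and 0.19% of all tested genes did, 0.0246% higher and 0.166% lower. DESeq2 called 0 members in both fractions too, where it called 121 (mono) and 111 (poly) of 16275 genes. An unadjusted edgeR p under 0.05 was reached by 0 members in either, and by 712 (mono) and 451 (poly) of the 16275 genes. With so few genes passing, 0 of 9 members is near the background. The differences in mono ran from -0.58 ± 0.45 (CCNB1) to 0.63 ± 0.68 (CCNE1) on the log2 scale. Those in poly ran from -0.57 ± 0.45 (CCNB1) to 0.50 ± 0.45 (CCND1). MYC, for example, was at 281 and 275 CPM in WT poly and at 236 in both CBFB_KO poly libraries, a log2 difference of -0.24 ± 0.44. CCND1 was at 27.2 and 26.2 CPM in WT poly and at 37.5 and 37.7 CPM in CBFB_KO poly. CCND1 differed by 0.50 ± 0.45 on the log2 scale. For both genes the poly libraries of the genotypes did not overlap, but neither difference passed. With SEs of 0.36 to 0.68, a difference of 2-fold could be missed, so these values do not show equal levels.

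The ratio of the poly to the mono fraction describes how heavily an mRNA that carries ribosomes is loaded. CCND1 and CCNB1 were higher in poly than in mono in both genotypes. In WT they were the 2 of 9 members that passed, where 20.6% of all tested genes did (11.0% higher, 9.68% lower), and in CBFB_KO again the 2 of 9, where 16.9% did (8.2% higher, 8.66% lower). CCND1 was at 4.6 and 7.13 CPM in WT mono and at 27.2 and 26.2 CPM in WT poly. Its log2 change was 2.19 ± 0.47 (edgeR adjusted p = 0.00901). In CBFB_KO it went from 6.11 and 6.53 CPM in mono to 37.5 and 37.7 CPM in poly, a log2 change of 2.57 ± 0.47 (edgeR adjusted p = 0.00771). CCNB1, the mitotic cyclin, was at 24.5 and 51.2 CPM in WT mono against 134 and 171 CPM in poly, and at 20.6 and 29.9 CPM against 104 and 101 CPM in CBFB_KO. Its log2 changes were 2.01 ± 0.47 (edgeR adjusted p = 0.0124) and 2.02 ± 0.47 (edgeR adjusted p = 0.0156).

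The remaining members did not pass for poly against mono. CCNA2 had log2 differences of 0.87 ± 0.36 in WT and 1.08 ± 0.37 in CBFB_KO (edgeR adjusted p of 0.112 and 0.0649), and MYC of 0.53 ± 0.44 and 0.56 ± 0.44. CDKN1A had -0.97 ± 0.46 and -1.10 ± 0.46 (edgeR adjusted p of 0.159 and 0.126). The difference in this ratio between the genotypes passed for 0 of 9 members and 0.0% of all tested genes by edgeR, and DESeq2 also called 0 genes. An unadjusted p under 0.05 was reached by 0 members and 164 genes by edgeR. The differences of the members ran from -0.17 ± 0.95 (CCNE1) to 0.94 ± 0.75 (MDM2). In fits without 1 replicate of a genotype, the log2 changes of CCND1 and CCNB1 in that genotype lay between 1.75 and 2.72, but their calls did not hold. Those fits leave 1 library in a group, and their counts for members and for all genes are given at the end.

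**Figure D3:**
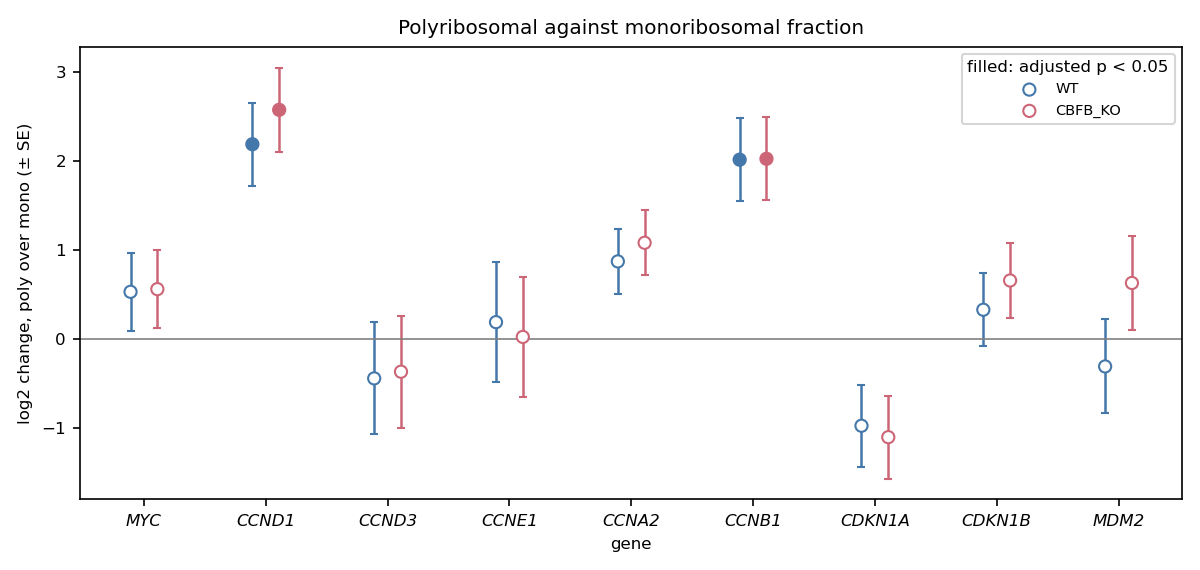
Log2 change of the poly over the mono fraction (± SE) for each tested member in WT and CBFB_KO cells, from TMM-normalized counts. Filled points passed the edgeR test at an adjusted p under 0.05: CCND1 and CCNB1 in both genotypes, with log2 changes from 2.01 to 2.57.

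The ratio of the poly to the free fraction is the measure in which the study looked for effects of CBFB deletion on translation. In WT, CCND1 and CCNB1 were higher and MYC and CDKN1A lower in poly than in free, 4 of 9 members, where 22.0% of all tested genes passed (14.0% higher, 7.99% lower). CCND1 rose by 2.43 ± 0.47 on the log2 scale (edgeR adjusted p = 0.00547) and CCNB1 by 1.57 ± 0.46 (edgeR adjusted p = 0.0321). MYC fell by 1.38 ± 0.44 (edgeR adjusted p = 0.045), from 551 and 898 CPM in free to 281 and 275 CPM in poly. CDKN1A fell by 1.92 ± 0.47 (edgeR adjusted p = 0.0162), from 889 and 1060 CPM in free to 301 and 215 CPM in poly. CCND3 had a log2 difference of -1.09 ± 0.63 (edgeR adjusted p = 0.233), and CCNE1, CCNA2, CDKN1B and MDM2 lay between -0.20 and 0.40. Over the 15 alternatives, which include leaving out a replicate, the log2 changes ran from 1.649 to 3.383 for CCND1 and from 1.443 to 2.119 for CCNB1. They ran from -1.687 to -0.864 for MYC and from -2.281 to -1.399 for CDKN1A. Of the 15, MYC passed in 8, CCNB1 and CDKN1A each in 12 and CCND1 in 14. With scaling to library size alone, MYC at -0.86 and CDKN1A at -1.40 did not pass (adjusted p of 0.362 and 0.15), where the median of all genes was 0.61 in place of 0.08.

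In CBFB_KO, CCNB1 was higher and MDM2 lower in poly than in free, 2 of 9 members, where 31.4% of all tested genes passed (14.6% higher, 16.7% lower). CCNB1 rose by 1.85 ± 0.47 on the log2 scale (edgeR adjusted p = 0.0122), from 36.3 and 20.6 CPM to 104 and 101 CPM. MDM2 had a log2 change of -1.96 ± 0.54 (edgeR adjusted p = 0.0191), from 19.6 and 44.2 CPM to 7.76 and 8.61 CPM, and one of 0.47 with scaling to library size alone (adjusted p = 0.479). CCND1 was at 30.5 and 37.2 CPM in free and 37.5 and 37.7 CPM in poly, a log2 difference of 0.15 ± 0.45. For CCND1 this value depended on the scaling, since it was 2.43 with scaling to library size alone (adjusted p = 0.00586) and 1.14 with the gene length offset described below (adjusted p = 0.0257), and passed as higher in both. CCNE1 had 1.93 ± 0.71 and CCND3 1.26 ± 0.64 (edgeR adjusted p of 0.0573 and 0.15), while CDKN1B had -1.11 ± 0.42 (edgeR adjusted p = 0.0641). Without CBFB_KO replicate 2, which leaves 1 library in each CBFB_KO group, CCNB1 was at 1.53 and MDM2 at -1.32.

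**Figure D4:**
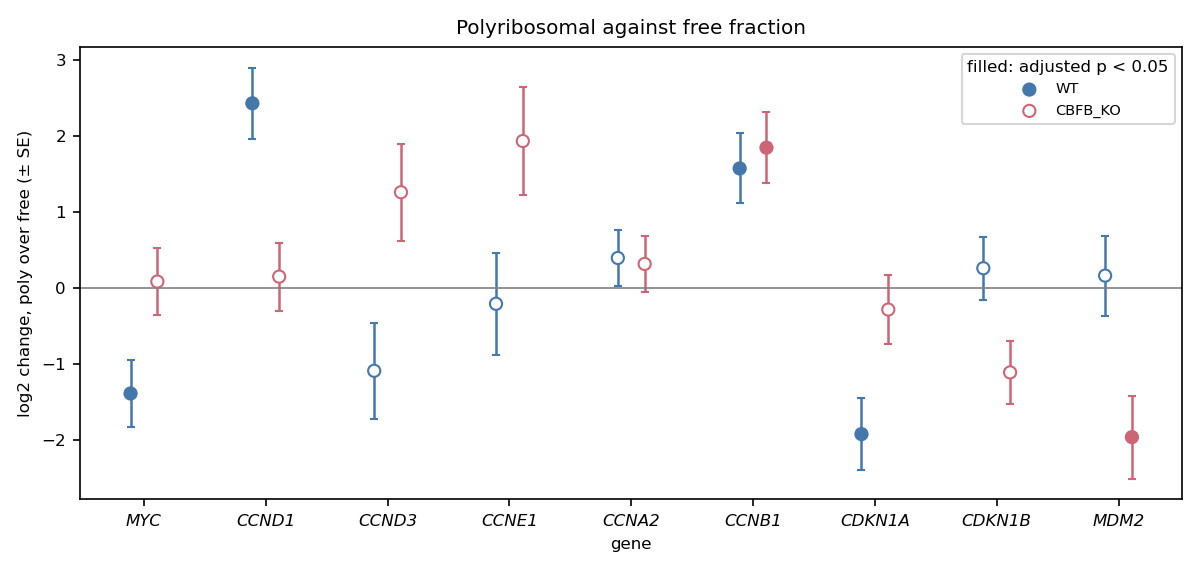
Log2 change of the poly over the free fraction (± SE) for each tested member in WT and CBFB_KO cells, from TMM-normalized counts. Filled points passed the edgeR test at an adjusted p under 0.05. CCNB1 lies above 0 in both genotypes (1.57 and 1.85), and CCND1 lies at 2.43 in WT and 0.15 in CBFB_KO. With scaling to library size alone CCND1 is at 2.94 and 2.43, and with a gene length offset at 1.65 and 1.14. MDM2 in CBFB_KO turns from -1.96 to 0.47 with scaling to library size alone.

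The test of the difference between the genotypes in this ratio was passed by CCND1 alone, 1 of 9 members, where 18.4% of all tested genes passed (4.1% higher, 14.3% lower). The log2 ratio of poly to free of CCND1 was lower in CBFB_KO than in WT by a log2 difference of -2.28 ± 0.64 (edgeR adjusted p = 0.0315). It combines the genotype difference of 0.50 ± 0.45 in poly with that of 2.77 ± 0.48 in free. The next members did not pass. MDM2 had a difference of -2.12 ± 0.75, CCND3 2.35 ± 0.90, CDKN1A 1.64 ± 0.65 and MYC 1.47 ± 0.62, with edgeR adjusted p of 0.068, 0.085, 0.0944 and 0.109. CCNA2 at -0.08 ± 0.51 and CCNB1 at 0.27 ± 0.64 lay nearest to 0. CCND1 did not pass without WT replicate 1 (-1.72, adjusted p = 0.112), without CBFB_KO replicate 1 (-2.41, adjusted p = 0.1) or without CBFB_KO replicate 2 (-2.14, adjusted p = 0.266). Nor did it pass with scaling to library size alone (-0.51, adjusted p = 0.655). The free and poly values of a genotype enter both the ratios and the comparisons within a fraction above, so these are not independent of each other.

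Changes in the free fraction moved with gene length over the whole table. Tested genes were divided into 5 bins of equal size by the mean length that RSEM gave them. The median log2 change of CBFB_KO over WT in free was -1.12 in the shortest bin, then -0.80, -0.25 and 0.63, and 2.13 in the longest. CCND1, with a mean length of 3954 bases, lies in the longest bin, in which 53.9% of genes passed as higher. MYC (2230 bases), CCNA2 (2797) and CDKN1B (2490) lie in the fourth bin, CCND3 (1608), CDKN1A (2174) and MDM2 (2025) in the third, and CCNE1 (1596) and CCNB1 (1497) in the second. MYC therefore lay below and MDM2 above the median of their bins, while CCND1 at 2.77 lay close to the median of its own. The ratios of fractions moved with length too. For poly against mono, the WT medians ran from -1.48 in the shortest bin to 0.93 in the longest. Those of CBFB_KO ran from -1.48 to 0.89. In WT, 21.8% of the longest bin, that of CCND1, were higher in poly than in mono. In the bin of CCNB1 6.11% were, with a median of -0.50. For poly against free the medians ran from -0.42 to 1.0 in WT and from 0.69 to -1.31 in CBFB_KO.

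A smooth curve of each library's deviation on gene length was then added to the fit as an offset. With it, the bin medians of CBFB_KO over WT in free lay between -0.27 and 0. MYC was then at -1.99 ± 0.33 (edgeR adjusted p = 0.00187), CCND3 at -2.46 ± 0.52 (adjusted p = 0.00555) and MDM2 at 2.72 ± 0.64 (adjusted p = 0.00898). CCND1 was at 1.04 ± 0.34 (adjusted p = 0.0345) in place of 2.77 without the offset, and CDKN1B at 0.70 ± 0.35 no longer passed (adjusted p = 0.139). CDKN1A at -1.41 ± 0.35 and CCNA2 at -1.08 ± 0.34 passed with the offset (adjusted p of 0.0118 and 0.0291). The difference of CCND1 in the poly to free ratio was -0.51 with the offset (adjusted p = 0.473), where MYC at 1.80 and CDKN1A at 1.93 passed (adjusted p of 0.0266 and 0.0291). The CCND1 changes of poly over mono with the offset were 1.38 in WT and 1.72 in CBFB_KO, and both passed (adjusted p of 0.0233 and 0.0131). The part of length, mitochondrial share or library depth in these changes was not tested.

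**Figure D5:**
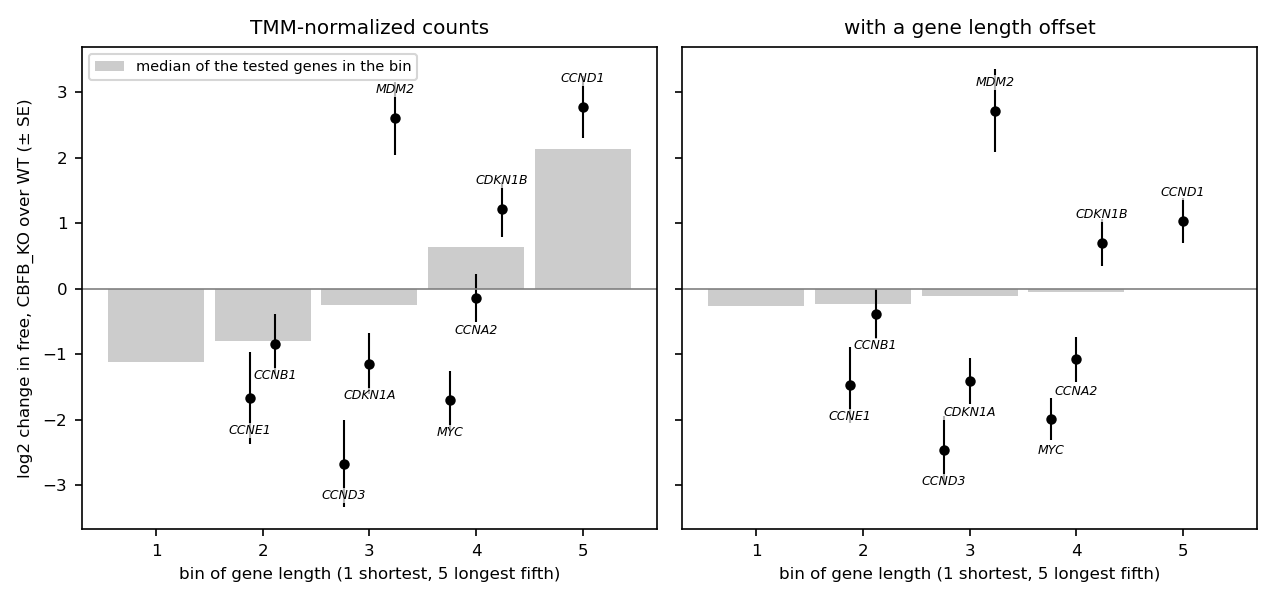
Log2 change of CBFB_KO over WT in the free fraction for the members (points ± SE) over the median of all tested genes in the same bin of gene length (grey bars, 5 bins of equal size). On the left, from TMM-normalized counts, the medians run from -1.12 to 2.13. On the right, with a gene length offset, they lie between -0.27 and 0, CCND1 is at 1.04 and MDM2 at 2.72. With scaling to library size alone CDKN1B is at -0.48.

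The other genes of these pathways were taken from 7 lists of 95 genes in all, of which 93 were tested. For CBFB_KO against WT in the free fraction, 20 rose and 24 fell, together 47.3%, beside 42.3% of all genes. The median log2 change of the 93 genes was -0.45, against 0.04 over all genes. Of the CDK inhibitors outside the panel and the genes of their turnover, 7 of 9 tested were lower (CDKN1C, CDKN2C, CDKN2D, CKS1B, CKS2, FBXO31 and SKP2) and 0 higher. Over all genes 18.1% were lower, with 28.5% in the shortest bin of gene length and 30.4% in the second. RSEM lengths were 613 bases for CKS2, 784 to 818 for CKS1B and 1086 to 1345 for CDKN2D. They ran from 1461 to 3655 for SKP2 and from 1676 to 5050.5 for FBXO31. The part of length in the changes of this list was not tested. Of this list, SKP2, FBXO31 and CKS1B serve the degradation of proteins such as p27 and cyclin D rather than inhibit CDKs, and CKS2 is not a CDK inhibitor either. CDKN2C (p18) had a log2 change of -2.997 ± 0.60 (edgeR adjusted p = 0.00375), from 22.7 and 16.1 CPM to 3.82 and 0.809 CPM, and BIRC5, a mitotic regulator and inhibitor of apoptosis, fell by 3.01 ± 0.85 (edgeR adjusted p = 0.0175). CDKN2C missed the threshold without CBFB_KO replicate 2 (adjusted p = 0.0501) and BIRC5 without WT replicate 1 (adjusted p = 0.099).

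Of the MYC network, 4 of 14 tested genes rose and 5 fell in this comparison. Of the RB and E2F genes 4 of 13 rose and 2 fell, of the p53 pathway 6 of 21 rose and 5 fell, and of the proliferation markers 2 of 17 rose and 3 fell. Of the CDKs and their phosphoregulators 2 of 10 rose and 2 fell. Of the other cyclins, CCND2 and CCNE2 rose and 0 of 9 fell. CCNE2, a partner of CDK2 at entry into S phase, had 0 counts in both WT free libraries and a mean of 0.914 CPM in CBFB_KO. On the TMM scale this mean is 21.4-fold a floor of 3 counts per library, with 1.02 and 0.809 CPM in the CBFB_KO libraries. It is not a lower bound, since the second CBFB_KO free library held 8 counts. The TMM factors of 0.494 and 0.241 raise the CPM of both CBFB_KO free libraries. The CCNE2 call was lost without CBFB_KO replicate 1 (adjusted p = 0.091) or CBFB_KO replicate 2 (adjusted p = 0.111).

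CCND2, the remaining D-type cyclin, was higher in CBFB_KO in all 3 fractions. It was at 0.757 and 0.894 CPM in WT poly, which are 79 and 81 counts, and at 95.8 and 95.7 CPM in CBFB_KO poly. The log2 changes were 7.12 ± 0.86 in free (WT 0 and 6 counts), 6.61 ± 0.80 in mono and 6.86 ± 0.77 in poly (edgeR adjusted p of 0.000225, 0.00613 and 0.00292). In mono and in poly it was the 1 gene of the 93 that passed (1.08%). In the fits without WT replicate 2 its change was 7.42 in mono and 7.02 in poly. In mono it was 6.03 without WT replicate 1, 6.83 without CBFB_KO replicate 1 and 6.36 without CBFB_KO replicate 2. In poly it was 6.85 without CBFB_KO replicate 1. The calls in mono and poly did not hold in these fits, which leave 1 library in a group. It also passed as higher in poly than in mono in both genotypes.

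For poly against mono, 15 of the 93 genes rose and 8 fell in WT (24.7%, beside 20.6% of all genes) and 13 rose and 5 fell in CBFB_KO (19.4%, beside 16.9%). In WT, MCM6, a subunit of the replicative helicase, rose by 3.05 ± 0.52 (edgeR adjusted p = 0.00434), and the ubiquitin ligase gene MYCBP2 went from 1 count in each mono library to 1.98 and 4.39 CPM in poly. In both genotypes CDKN3, a CDK-associated phosphatase, and MYCBP, a MYC-binding protein, fell most. CDKN3 was lower by a log2 change of -2.78 ± 0.57 in WT and -2.64 ± 0.57 in CBFB_KO (edgeR adjusted p of 0.00775 and 0.0125), and MYCBP by -2.03 ± 0.44 and -1.86 ± 0.44 (adjusted p of 0.00956 and 0.0167). With the gene length offset CDKN3 was at -1.49 and -1.35 and did not pass (adjusted p of 0.0674 and 0.106), and with scaling to library size alone MYCBP was at -1.14 and -0.86 and did not pass (adjusted p of 0.155 and 0.294). Without replicate 1 and replicate 2 of the genotype, CDKN3 was at -2.99 and -2.29 in WT and at -3.155 and -1.84 in CBFB_KO. MYCBP was at -2.34 and -1.47 in WT and at -2.28 and -1.25 in CBFB_KO. Without WT replicate 2, MCM6 was at 2.63 and MYCBP2 at 6.83. None of these calls held there, and the counts over all genes in such fits, which leave 1 library in a group, are given at the end. In CBFB_KO, the germline cyclin CCNA1 rose by 3.47 ± 0.68 and the ubiquitin ligase subunit FBXW7 by 3.26 ± 0.85 (edgeR adjusted p of 0.00941 and 0.0248), on 3 to 19 counts in each mono library. Neither passed without CBFB_KO replicate 1 (adjusted p of 0.135 for CCNA1 and 0.395 for FBXW7), without CBFB_KO replicate 2 (0.25 and 0.254) or with the poly libraries summed (0.0809 and 0.128), and FBXW7 did not pass with the length offset (2.44, adjusted p = 0.096). Proliferation markers rose in 6 of 17 in WT and fell in 0, beside 11.0% higher and 9.68% lower over all genes, and rose in 4 of 17 in CBFB_KO and fell in 0, beside 8.2% and 8.66%.

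For poly against free, 14 of the 93 genes rose and 6 fell in WT (21.5%, beside 22.0% of all genes), and 23 rose and 15 fell in CBFB_KO (40.9%, beside 31.4%). SKP2, the ubiquitin ligase subunit that recognises p27, and CCNG1, a p53-induced cyclin, fell most in WT, with log2 changes of -2.03 ± 0.38 and -1.92 ± 0.46 (edgeR adjusted p of 0.00487 and 0.0139), and CCND2 at 4.30 ± 0.82 and MYCBP2 at 4.66 ± 1.09 rose most. In CBFB_KO the death receptor FAS and MLXIP, a glucose-sensing partner of MLX, fell most, with log2 changes of -3.76 ± 0.46 and -3.66 ± 0.43 (edgeR adjusted p of 0.000265 and 0.000209). CCND2 at 4.04 ± 0.68 and the CDK inhibitor CDKN2D at 3.01 ± 0.71 rose most there. SKP2 and CCNG1 missed the threshold without WT replicate 1 (adjusted p of 0.0886 and 0.0846) and with scaling to library size alone (0.0986 and 0.0987). Without CBFB_KO replicate 2, FAS, CCND2 and CDKN2D missed it (adjusted p of 0.0527, 0.076 and 0.149). The difference of this ratio between genotypes passed for 16 of the 93 genes (17.2%, beside 18.4% of all genes), 3 higher and 13 lower in CBFB_KO, and their median over all 93 was 0.35, against -0.10 over all genes. The difference in the poly to mono ratio passed for 0 of 93.

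For each tested member, the tested gene with the most similar level over the 12 libraries was found by Pearson's r of log2 TMM-normalized CPM. The values describe likeness only, since the libraries fall into 6 groups and the CBFB_KO free libraries stand apart. The pairs were MYC with IRX2 (r = 0.976), CCND1 with SPTLC2 (0.98), CCND3 with NARF (0.993), CCNE1 with CTU1 (0.994) and CCNA2 with MORC2 (0.974). CCNB1 was paired with ILF2 (r = 0.976), CDKN1A with DBNDD1 (0.989), CDKN1B with TACC2 (0.982) and MDM2 with RALGPS2 (0.98). None of these 9 genes is a member or on the pathway lists.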

How the data were processed

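Sequenced RNA came from 3 gradient fractions of MCF10A cells of 2 genotypes, with 2 libraries in each of 6 groups taken from the labels. The labels name a TruSeq mRNA kit. Per the labels' processing notes the authors used Trimmomatic, STAR and RSEM with hg19, and versions are not given in the sources used here. Expected counts, as the authors deposited them, are estimated reads of a gene from RSEM and are not normalized. TPM, from the authors' same run, has 1 fixed sum in each library. FPKM, also deposited, is scaled by length and library total and entered no test. Gene length is the deposited RSEM average, in bases, which the authors' run gives beside the other columns.

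After rounding to whole numbers, the counts of all 12 libraries entered 1 model in edgeR 4.0.16 (R 4.3.3, quasi-likelihood test, TMM, filterByExpr over the 6 groups, a mean per group), which tested 16275 of 56632 genes in 9 comparisons. Adjusted p are Benjamini-Hochberg values over all tested genes, with a threshold of 0.05, and SE was taken as the log2 change over the root of F. DESeq2 1.42.0 and 14 other settings were tried. Nothing says whether the 2 libraries of a group came from separate cultures, so p-values measure the spread between these libraries. A total of 41050325 counts or more per library limits undetected genes to 3 counts, counting error only. The CBFB_KO poly pair, which may be 1 RNA sample sequenced as 2 libraries, differed by more than sampling noise and was kept as 2 samples, with their sum as an alternative. Scripts were tested on simulated data. Members and lists were chosen with earlier results of these data known. Beside the members and CBFB, the text names in each comparison the 2 list genes with the largest increase and the 2 with the largest decrease past the threshold, the neighbours of CDKN2B and the gene most like each member (log2 CPM with a prior count of 2). Transcript features and sequences are from GENCODE release 29 (GRCh38), 1 transcript a gene by APPRIS rank and coding length, not the authors' hg19 annotation, and MYC sequence is not shown. Figures were drawn with matplotlib 3.10.9.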

Additional observations from a re-analysis of the deposited data

Results flagged for a closer look

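The change in the poly to free ratio differed between the genotypes, by edgeR's test of that difference, for CCND1 among the members, with a log2 difference of -2.28 (CBFB_KO minus WT, adjusted p = 0.0315). It passed under 7 of 15 alternatives and kept its sign under all 15, with values from -3.06 to -0.51. Among the named list genes, MYCBP2 had -7.43 ± 1.45 (adjusted p = 0.00615), with WT free libraries of 0 and 19 counts, and MLXIP had -4.83 ± 0.58 (adjusted p = 0.000527). CDKN2D had 3.35 ± 0.93 (adjusted p = 0.0307), with 1 count in the second CBFB_KO free library, and UBE2C, a ubiquitin-conjugating enzyme of mitotic exit, had 2.44 ± 0.75 (adjusted p = 0.0438). Without CBFB_KO replicate 2 the adjusted p was 0.163 for MYCBP2, 0.218 for CDKN2D and 0.244 for UBE2C.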

How the results depend on the processing

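The number of members that passed differed with the setting. For poly against free in WT it was 4, and 2 without TMM factors or with the CBFB_KO poly libraries summed to 1 sample (range on leaving out a replicate 0 to 4). For poly against mono in WT it was 2 (0 to 2). For poly against free in CBFB_KO it was 2, 7 without TMM factors, 4 with RLE factors, DESeq2 or the length offset, 5 with the replicate block and length offset, and 0 with the summed libraries (0 to 3). For poly against mono in CBFB_KO it was 2, 4 with DESeq2, 7 with only the conditions compared and 0 with the summed libraries (0 to 3). For CBFB_KO against WT in free it was 5, and 2 with only the conditions compared (1 to 6). For the difference of poly against free it was 1, 3 without TMM factors, 6 with DESeq2, 4 without the filter, 2 with the length offset, 3 with the replicate block with or without that offset, and 0 with only the conditions compared or the summed libraries (0 to 3). In mono and poly between genotypes and for the difference of poly against mono it was 0 in every setting run (0 to 0). The reversals, all without TMM factors, were CDKN1A (1.78, adjusted p = 0.0395) and MDM2 (0.47) in CBFB_KO poly against free and CDKN1B (-0.48) in CBFB_KO against WT in free, and the cause was not tested. Of 1188 values of members under the alternatives, 1057 kept their side of the threshold, 54 lost it, 74 gained it and 3 were these reversals, and 45 changed sign without passing in either fit. Of 384 values of the named list genes, 326 kept their call and 58 lost it.

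Counts over all genes moved too. Poly against free in WT gave 3574, with 1896 (conditions compared), 2240 (summed) and 1561 to 2809 on leaving out a replicate. Poly against mono in WT gave 3360, with 2178 (summed) and 0 to 2516. Poly against free in CBFB_KO gave 5104, with 8235 (no TMM), 2032 (summed) and 546 to 6507. Poly against mono in CBFB_KO gave 2744, with 4408 (DESeq2), 1811 (length offset), 7582 (conditions compared), 0 (summed) and 1 to 3889. CBFB_KO against WT gave 6882 in free, with 1921 (conditions compared) and 1623 to 7253. It gave 24 in mono, with 121 (DESeq2), 111 (no filter), 6 (conditions compared), 15 (summed) and 2 to 9, and 31 in poly, with 16 (no TMM), 111 (DESeq2), 89 (no filter), 173 (conditions compared), 5 (summed) and 0 to 15. The difference of poly against free gave 3000, with 5377 (DESeq2), 4579 (no filter), 788 (summed) and 362 to 2996, and that of poly against mono 0, with 16 (no filter). Higher and lower calls were 3943 and 2939 in free between genotypes but 1281 and 6461 without TMM and 2879 and 3338 with the length offset. For the difference of poly against free they were 668 and 2332 but 3003 and 646 without TMM, and in WT poly against free 2273 and 1301 but 2495 and 347.

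Whether equal replicate numbers mark 1 gradient is not stated, and the deviations did not establish a pairing with 2 libraries a group. Deviations from the group means correlated at 0.07 (free), 0.24 (mono) and 0.03 (poly) between genotypes and at -0.04 to 0.22 between fractions of a genotype. The replicate block gave 7 members in place of 5 for CBFB_KO against WT in free. A replicate block within genotype gave no value for comparisons within a fraction. Leaving out a replicate leaves a group with 1 library, which is assumed to vary like the others.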
